A study of Homo sapiens with 16 samples.

Results

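The G1/S and DNA replication genes are 53 genes whose products bring a cell from G1 into S phase and copy its DNA. They were taken from a list of gene symbols, and their probes were found through the RefSeq accession that the array files give for each probe. All 53 were measured, of 20503 genes with a matched symbol, by 67 probes, and all 67 probes passed the filter on dim signals. A cell licenses its origins in G1, when ORC, CDC6 and CDT1 load the MCM helicase onto DNA. CDC7 with DBF4 and the cyclin E kinase then start the helicase, which takes up CDC45 and the GINS complex, and polymerases copy both strands. Many of these genes are transcribed in late G1 by E2F factors, which the retinoblastoma protein holds back until cyclin kinases phosphorylate it. Bortezomib inhibits the proteasome, which degrades cyclins, CDK inhibitors, CDT1 and geminin, among many other proteins.

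LP-1 is a cell line from human multiple myeloma, a cancer of plasma cells, and its TRAF3 gene is deleted or mutated. LP-1-cIAP2-eGFP cells had been transduced with a lentivirus carrying the pIRES2-cIAP2-eGFP vector, LP-1-eGFP cells with the pIRES2-eGFP vector alone, and both were sorted for eGFP. Cells were left untreated or received 10 nM bortezomib for 6 h or 24 h, and each of the 8 conditions has 2 biological replicates, each on 1 single-colour Agilent array. Total RNA of all samples was extracted at the same time. Values below are log2 intensities after quantile normalization of the 16 arrays, and a difference of 1 on this scale is 2-fold. A gene was called where limma's Benjamini-Hochberg adjusted p over all probes tested was under 0.05, and each gene is given by its probe with the highest mean signal. Levels are compared only between arrays for the same probe, and a probe's mean signal serves only to choose which members are shown in full. In bulk RNA, fewer cells in G1 or S phase and less RNA per cell cannot be told apart.

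One array stood apart. This was replicate 1 of the LP-1-cIAP2-eGFP condition treated for 24 h, which had a log2 median signal of 3.18 before normalization, against 5.73 to 6.64 on the other 15 arrays, and 35.5% of its spots were well above background, against 49.0% to 71.1%. The difference between its condition's replicates had an SD of 1.48 over all probes, against 0.495 to 0.773 in the other 7 conditions. Over the 53 genes this SD was 0.287, against 0.111 to 0.222, and 51 of them were well above background on that array. It is called the dim array below, and for the genes with values on every array the 24 h difference in LP-1-cIAP2-eGFP is given with and without it. The only probe of BIRC3, the gene of cIAP2, had lower signal in the arrays labelled LP-1-cIAP2-eGFP, by -1.57 in untreated cells (adjusted p = 2.24e-05). The study places this probe in the untranslated 3′ end, where it reads endogenous cIAP2 alone, so the probe does not measure the transgene and checks nothing about the labels. Overexpression was examined in the study by RT-qPCR and western blot, which were not analysed here, and the line names below are those of the labels. All 8 plasma cell markers (SDC1, PRDM1, XBP1, IRF4, TNFRSF17, CD38, MZB1 and JCHAIN) were well above background on at least 15 arrays, and 7 of them were called lower with bortezomib at 24 h in the mean of the lines. Markers of other cells were well above background on some arrays. Of the T cell markers CD2 was so on 15 arrays, CD3D on 12 and CD3E on 10. Of the monocyte markers CD14 was so on 13 arrays and CSF1R on 0, and LYZ had no matched probe. Of the stromal markers COL1A1 was so on 10 arrays, COL1A2 and PDGFRB on 0. CD2 stood at 11.49 on the dim array, against a highest value of 7.82 on the other 15, and CD14 at 8.69 against 6.72, though CD14 was not well above background on the dim array. The part of such cells in the results was not tested.

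After 24 h of bortezomib more of the replication genes were called lower than higher in each line, and 22 of the 53 were called lower in both. In LP-1-eGFP 32 of the 53 were called, 27 lower and 5 higher, and 13 of the lower ones fell by over 2-fold. In LP-1-cIAP2-eGFP 33 were called, 26 lower and 7 higher, with 11 of the lower ones over 2-fold, and without the dim array 34 were called, 27 lower and 7 higher. Between these, 31 genes were called both ways, GMNN (0.34, adjusted p = 0.0622) and PRIM2 (0.52, adjusted p = 0.0615) were no longer called without it, and ORC1 (0.74, adjusted p = 0.00503), CDT1 (0.58, adjusted p = 0.0215) and DBF4 (-0.83, adjusted p = 0.0472) were newly called. Leaving it out moved the log2 differences of the 53 genes by -0.35 to 0.36, with a median of 0.10, and turned the direction of 0 called genes. Of all probes tested, 11.2% were called lower and 9.81% higher in LP-1-eGFP, and 17.5% lower and 11.1% higher in LP-1-cIAP2-eGFP. Bright genes passed the test more often, and of 9685 genes well above background on all 16 arrays 20.0% and 25.4% were called lower and 19.7% and 21.0% higher. The members were called lower more often than bright genes at large (50.9% and 49.1%) and called higher less often (9.43% and 13.2%), a comparison of counts with no test. Their median change was -0.54 in LP-1-eGFP, with -0.51 in LP-1-cIAP2-eGFP, and -0.03 and -0.16 over all probes tested. The largest falls were those of E2F8, E2F2, CDC7, E2F1, POLE2, TYMS, UHRF1, GINS1 and MCM10, and ORC6, RRM1, PRIM2 and RPA2 rose in both lines. Each of these 4 rises lost its call in at least 1 line in some fits with 1 array left out. When each array was scaled to its 75th percentile instead, 26 members were called lower and 0 higher in LP-1-eGFP against 28 lower and 2 higher (ORC6 and CLSPN) in LP-1-cIAP2-eGFP, and the median over all probes in LP-1-cIAP2-eGFP moved from -0.16 to 0.21. With quantile normalization and without the dim array that median was -0.025. Array weights, which with 2 replicates are equal within a condition and were lowest (0.121) for the condition of the dim array, left 13 calls in LP-1-cIAP2-eGFP, all lower. The median was -0.53 for LP-1-eGFP within slide 2 and -0.58 for LP-1-cIAP2-eGFP within slide 1, each from 3 of the 4 arrays already compared, so these are not separate evidence.

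**Figure D1:**
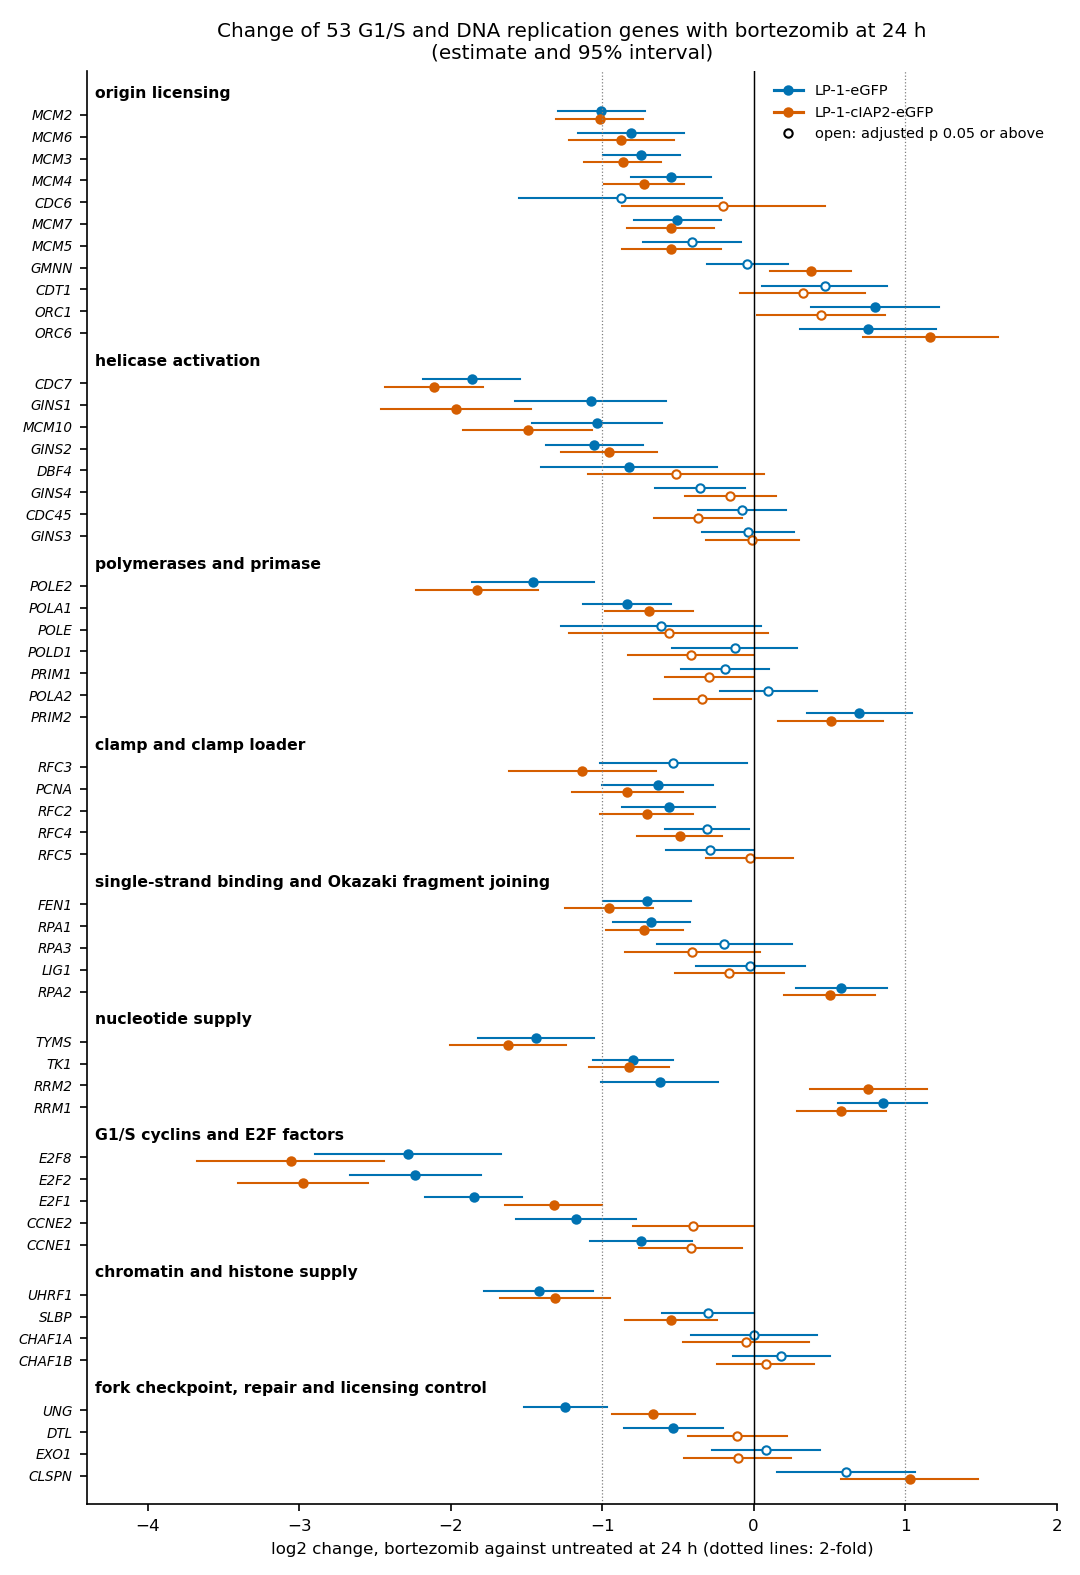
Log2 change of each of the 53 genes with bortezomib at 24 h (x axis), by role, in LP-1-eGFP (blue) and LP-1-cIAP2-eGFP (orange), with 95% intervals. Filled points have an adjusted p under 0.05 and dotted lines mark 2-fold. E2F8, E2F2 and CDC7 lie farthest to the left in both lines, and 22 genes are filled on the left in both.

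The G1/S cyclins and E2F factors held the largest falls. All 5 were called lower in LP-1-eGFP, 4 of them by over 2-fold, and 3 of 5 in LP-1-cIAP2-eGFP. E2F2 is an activator of the E2F family. In LP-1-eGFP, E2F2 was at 15.50 and 15.68 untreated and 15.01 and 15.27 with bortezomib at 6 h, and at 16.20 and 16.18 against 13.75 and 14.17 at 24 h. In LP-1-cIAP2-eGFP, E2F2 was at 15.95 and 16.10 untreated and 15.56 and 15.80 with bortezomib at 6 h, and at 16.64 and 16.64 against 13.48 and 13.85 at 24 h. At 24 h E2F2 differed by -2.23 (SE 0.19, adjusted p = 5.89e-05) in LP-1-eGFP and by -2.97 (SE 0.19, adjusted p = 1.04e-05) in LP-1-cIAP2-eGFP, or -2.77 (adjusted p = 5.02e-05) without the dim array. The 4 treated arrays at 24 h were below every other array, and at 6 h the treated arrays were below the untreated ones of the same line by much less. E2F8 is a repressor of the family that is itself transcribed at the G1/S boundary. In LP-1-eGFP, E2F8 was at 9.77 and 10.09 untreated and 8.53 and 9.05 with bortezomib at 6 h, and at 10.39 and 10.41 against 7.95 and 8.28 at 24 h. In LP-1-cIAP2-eGFP, E2F8 was at 10.48 and 10.73 untreated and 9.56 and 9.96 with bortezomib at 6 h, and at 11.33 and 11.13 against 7.82 and 8.53 at 24 h. At 24 h E2F8 differed by -2.28 (SE 0.28, adjusted p = 0.000355) in LP-1-eGFP and by -3.06 (SE 0.28, adjusted p = 5.57e-05) in LP-1-cIAP2-eGFP, or -2.73 (adjusted p = 0.000206) without the dim array. The 4 arrays with bortezomib at 24 h lay at or below 8.53, and the lowest of the other 12 was an LP-1-eGFP array treated for 6 h, also at 8.53. E2F1, the best known activator, fell by 1.85 (SE 0.14, adjusted p = 3.69e-05) in LP-1-eGFP and by 1.32 (SE 0.14, adjusted p = 0.00015) in LP-1-cIAP2-eGFP. The cyclins that drive the kinase CDK2 at this boundary changed less. CCNE2 fell in LP-1-eGFP (-1.17, adjusted p = 0.00118) and was at -0.40 in LP-1-cIAP2-eGFP (adjusted p = 0.119). The second CCNE2 probe gave -0.66 and -0.06. CCNE1 fell in LP-1-eGFP (-0.74, adjusted p = 0.00617) and was at -0.42 in LP-1-cIAP2-eGFP (adjusted p = 0.0662), or -0.45 (adjusted p = 0.0893) without the dim array. The LP-1-eGFP call of CCNE1 had an adjusted p of 0.0516 without the first treated 24 h replicate.

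**Figure D2:**
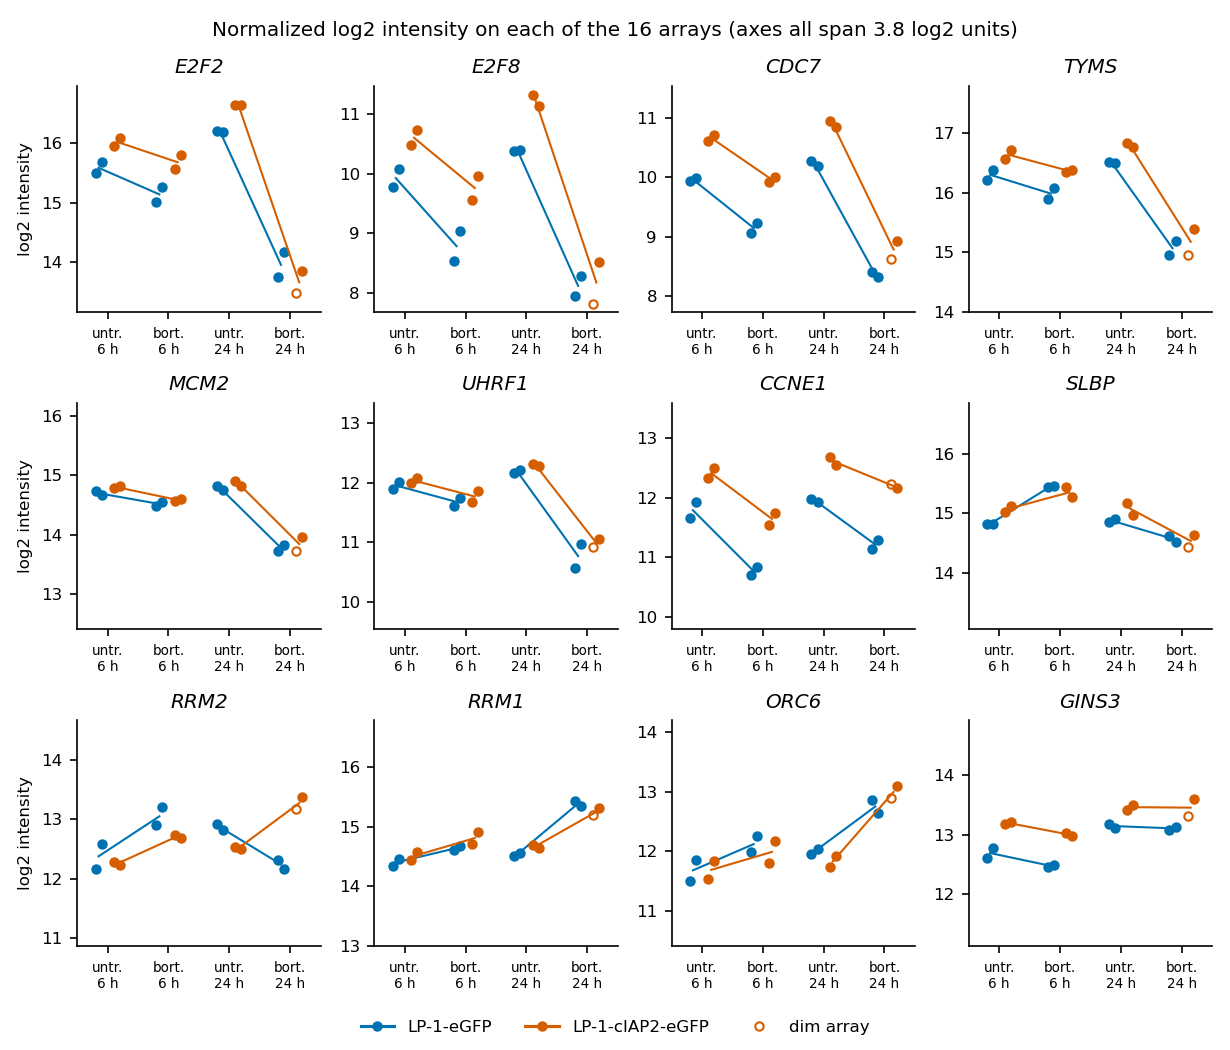
Normalized log2 intensity (y axis, 3.8 log2 units in each panel) of 12 of the genes on all 16 arrays, by treatment and time (x axis), in LP-1-eGFP (blue) and LP-1-cIAP2-eGFP (orange), with lines through the means of 2 replicates and the dim array as an open point. E2F2, E2F8, CDC7 and TYMS drop from untreated to treated cells at 24 h in both lines, RRM1 and ORC6 rise, GINS3 stays level, and RRM2 drops in LP-1-eGFP while it rises in LP-1-cIAP2-eGFP.

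The promoters of the members are shown for the letters that E2F factors are known to bind. RefSeq promoter windows of 300 bases (250 before to 50 after a gene's start, GRCh38.p14) were given for 46 of the 53 genes. The letters searched were TTTCCCGC, TTTCGCGC, TTTGCCGC and TTTGGCGC on both strands, where a match on one strand can overlap one on the other. At least 1 match stood in a window of 26 of the 46 genes (56.5%), against 3.99% of the 27305 genes with a window. The members were chosen as G1/S and replication genes, many of them known to be transcribed by E2F factors. A high share therefore follows from that choice, and a part of E2F factors in the falls was not tested. Among the 22 genes called lower in both lines, 20 had a window and 15 of these held a match. FEN1, MCM10, RFC2, RPA1 and TK1 were called lower in both lines and had a window without a match. Of the 4 called higher in both lines, 3 had a window and 0 held one, and among the remaining 23 genes 11 did (47.8%). CCAAT, a motif common in cell cycle promoters, stood in 56.5% of the members and in 39.7% of all genes with a window. The CHR letters TTTGAA and TTCGAA, known from G2/M promoters, stood in 8.70% of the members and in 19.5% of all genes. These are matches of letters, not measured binding, and other forms of the E2F site were not searched. Below are 60 bases around the first match of 12 genes, 5′ to 3′ on the strand of the gene, with the matches in capitals. The 12 are examples of the 26 genes with a match. The first 9 fell in both lines, GINS3 and EXO1 were called in neither, and CLSPN was called higher in LP-1-cIAP2-eGFP.
E2F1 (chr20:33686385-33686444, minus strand): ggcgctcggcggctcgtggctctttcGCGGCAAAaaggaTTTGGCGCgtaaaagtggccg
E2F2 (chr1:23531242-23531301, minus strand): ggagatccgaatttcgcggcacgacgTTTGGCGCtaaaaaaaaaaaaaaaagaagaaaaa
CDC7 (chr1:91501018-91501077, plus strand): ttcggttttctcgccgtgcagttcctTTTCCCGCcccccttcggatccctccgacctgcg
MCM2 (chr3:127598387-127598446, plus strand): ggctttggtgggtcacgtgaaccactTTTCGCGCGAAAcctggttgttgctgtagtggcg
MCM6 (chr2:135876562-135876621, minus strand): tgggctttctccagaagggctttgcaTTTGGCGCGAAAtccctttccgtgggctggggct
GINS1 (chr20:25407652-25407711, plus strand): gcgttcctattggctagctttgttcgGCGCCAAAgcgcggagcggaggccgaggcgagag
POLE2 (chr14:49688186-49688245, minus strand): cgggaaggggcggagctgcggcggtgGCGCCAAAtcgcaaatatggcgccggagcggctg
TYMS (chr18:657588-657647, plus strand): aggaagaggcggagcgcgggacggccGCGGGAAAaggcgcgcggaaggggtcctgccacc
UHRF1 (chr19:4909461-4909520, plus strand): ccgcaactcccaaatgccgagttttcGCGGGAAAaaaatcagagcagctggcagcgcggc
GINS3 (chr16:58392440-58392499, plus strand): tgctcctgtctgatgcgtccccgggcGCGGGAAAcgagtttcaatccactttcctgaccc
EXO1 (chr1:241848182-241848241, plus strand): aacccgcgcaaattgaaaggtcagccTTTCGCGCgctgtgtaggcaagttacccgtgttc
CLSPN (chr1:35769950-35770009, minus strand): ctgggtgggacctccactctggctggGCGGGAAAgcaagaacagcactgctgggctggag
In E2F1 2 matches stood within 60 bases, the first of them 33 bases before the start. The MCM2 and MCM6 matches overlapped on the 2 strands, as a run of 12 letters, and MCM6 had 4 matches in its window, the most of any member shown. GINS3 and EXO1, with log2 differences of -0.04 and -0.01 and of 0.08 and -0.11 in LP-1-eGFP and LP-1-cIAP2-eGFP, held a match as the genes that fell did.

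Of the 11 origin licensing genes, 5 were called lower and 2 higher in LP-1-eGFP against 6 lower and 2 higher in LP-1-cIAP2-eGFP. The falls were all in the MCM2 to MCM7 helicase, and no other gene of the group was called lower. MCM7 is shown as the member of the group with the brightest probe. In LP-1-eGFP, MCM7 was at 16.85 and 16.93 untreated and 16.84 and 16.85 with bortezomib at 6 h, and at 16.93 and 17.05 against 16.39 and 16.58 at 24 h. In LP-1-cIAP2-eGFP, MCM7 was at 17.01 and 17.09 untreated and 16.93 and 16.98 with bortezomib at 6 h, and at 17.23 and 17.17 against 16.58 and 16.73 at 24 h. At 24 h MCM7 differed by -0.50 (SE 0.13, adjusted p = 0.0197) in LP-1-eGFP and by -0.55 (SE 0.13, adjusted p = 0.0108) in LP-1-cIAP2-eGFP, or -0.47 (adjusted p = 0.0252) without the dim array. The 4 treated arrays at 24 h were the lowest of the 16. A second MCM7 probe gave -0.56 in LP-1-eGFP, not called, and -1.04 in LP-1-cIAP2-eGFP, called lower. On the reported probe the call was lost without the first treated or the second untreated 24 h replicate of LP-1-eGFP (adjusted p up to 0.141) and without the first untreated 24 h replicate of LP-1-cIAP2-eGFP (0.0645). MCM2, another subunit, fell most. In LP-1-eGFP, MCM2 was at 14.73 and 14.67 untreated and 14.49 and 14.55 with bortezomib at 6 h, and at 14.83 and 14.75 against 13.73 and 13.84 at 24 h. In LP-1-cIAP2-eGFP, MCM2 was at 14.78 and 14.82 untreated and 14.56 and 14.61 with bortezomib at 6 h, and at 14.90 and 14.82 against 13.73 and 13.96 at 24 h. At 24 h MCM2 differed by -1.01 (SE 0.13, adjusted p = 0.000489) in LP-1-eGFP and by -1.02 (SE 0.13, adjusted p = 0.000347) in LP-1-cIAP2-eGFP, or -0.90 (adjusted p = 0.000636) without the dim array. The 4 arrays of treated cells at 24 h lay below the other 12. MCM3 (-0.74 and -0.86), MCM4 (-0.54 and -0.72) and MCM6 (-0.81 and -0.87) fell in both lines too, in log2 units for LP-1-eGFP and LP-1-cIAP2-eGFP. MCM5 (-0.41 and -0.54) was called in LP-1-cIAP2-eGFP only, as was its second probe (-0.39 and -0.66). With 1 array left out, the MCM4 call in LP-1-eGFP and the MCM5 call in LP-1-cIAP2-eGFP were lost in some fits. ORC6, a subunit of the origin recognition complex, rose. In LP-1-eGFP, ORC6 was at 11.51 and 11.86 untreated and 11.99 and 12.26 with bortezomib at 6 h, and at 11.96 and 12.03 against 12.86 and 12.65 at 24 h. In LP-1-cIAP2-eGFP, ORC6 was at 11.54 and 11.84 untreated and 11.81 and 12.17 with bortezomib at 6 h, and at 11.74 and 11.92 against 12.89 and 13.11 at 24 h. At 24 h ORC6 differed by 0.76 (SE 0.20, adjusted p = 0.0235) in LP-1-eGFP and by 1.17 (SE 0.20, adjusted p = 0.002) in LP-1-cIAP2-eGFP, or 1.28 (adjusted p = 0.00383) without the dim array. All 4 arrays with bortezomib at 24 h were above the other 12. In LP-1-eGFP the rise of ORC6 was not called without either untreated or without the first treated 24 h replicate (adjusted p = 0.0764 to 0.145). ORC1, the largest ORC subunit, was at 0.80 (SE 0.19, adjusted p = 0.0133) in LP-1-eGFP and 0.44 (SE 0.19, adjusted p = 0.109) in LP-1-cIAP2-eGFP. The LP-1-eGFP call of ORC1 was lost in some fits with 1 array left out. CDT1, which loads the helicase, was at 0.47 and 0.32 and not called in either line. GMNN encodes geminin, which binds CDT1, and was called higher in LP-1-cIAP2-eGFP only (0.38, adjusted p = 0.0402), a call that was lost without any 1 of 13 arrays. CDC6 had a missing spot on 1 array and was well above background on 14, and its differences of -0.88 and -0.20 were not called.

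Of the 8 genes of helicase activation, 5 were called lower in LP-1-eGFP against 4 in LP-1-cIAP2-eGFP, and none higher. CDC7 is the kinase that phosphorylates the MCM helicase at licensed origins. In LP-1-eGFP, CDC7 was at 9.93 and 9.99 untreated and 9.06 and 9.24 with bortezomib at 6 h, and at 10.27 and 10.19 against 8.41 and 8.32 at 24 h. In LP-1-cIAP2-eGFP, CDC7 was at 10.61 and 10.71 untreated and 9.92 and 10.00 with bortezomib at 6 h, and at 10.94 and 10.84 against 8.63 and 8.93 at 24 h. At 24 h CDC7 differed by -1.86 (SE 0.14, adjusted p = 3.69e-05) in LP-1-eGFP and by -2.11 (SE 0.14, adjusted p = 1.30e-05) in LP-1-cIAP2-eGFP, or -1.98 (adjusted p = 3.58e-05) without the dim array. The treated arrays were below the untreated ones of the same line at both times, and lowest at 24 h. DBF4, its regulatory subunit, was at -0.82 (SE 0.26, adjusted p = 0.0499) and -0.51 (SE 0.26, adjusted p = 0.171), and the LP-1-eGFP call was lost without any 1 of 13 arrays. A second DBF4 probe gave -1.94 in LP-1-eGFP (adjusted p = 0.0308) and -0.77 in LP-1-cIAP2-eGFP, the latter not called. GINS1 is a subunit of the GINS complex, which moves with the helicase. In LP-1-eGFP, GINS1 was at 13.34 and 13.47 untreated and 12.77 and 13.00 with bortezomib at 6 h, and at 13.46 and 13.65 against 12.34 and 12.61 at 24 h. In LP-1-cIAP2-eGFP, GINS1 was at 13.78 and 13.86 untreated and 13.49 and 13.51 with bortezomib at 6 h, and at 13.97 and 13.94 against 11.62 and 12.35 at 24 h. At 24 h GINS1 differed by -1.08 (SE 0.22, adjusted p = 0.0067) in LP-1-eGFP and by -1.97 (SE 0.22, adjusted p = 0.000189) in LP-1-cIAP2-eGFP. The lowest value of the 16 was that of the dim array, and without it the difference in LP-1-cIAP2-eGFP was -1.60 (adjusted p = 0.000207). In LP-1-eGFP the call was lost without the first treated 24 h replicate (adjusted p = 0.0584). GINS2 fell in both lines (-1.05 and -0.95), as did MCM10 (-1.03 and -1.49), which joins the helicase and the polymerases at the origin. The other GINS subunits were not called, GINS3 at -0.04 and -0.01 and GINS4 at -0.36 and -0.15. CDC45, which completes the active helicase and is shown for its bright probe, was not called either. In LP-1-eGFP, CDC45 was at 14.70 and 14.79 untreated and 14.78 and 14.86 with bortezomib at 6 h, and at 14.88 and 14.85 against 14.76 and 14.81 at 24 h. In LP-1-cIAP2-eGFP, CDC45 was at 14.58 and 14.64 untreated and 14.60 and 14.70 with bortezomib at 6 h, and at 14.75 and 14.75 against 14.26 and 14.50 at 24 h. At 24 h CDC45 differed by -0.08 (SE 0.13, adjusted p = 0.77) in LP-1-eGFP and by -0.37 (SE 0.13, adjusted p = 0.0591) in LP-1-cIAP2-eGFP, or -0.25 (adjusted p = 0.161) without the dim array. At 24 h the treated arrays were slightly below the untreated ones in both lines.

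Among the 7 polymerase and primase genes 2 were called lower and 1 higher in each line, the same 3 genes. POLE2, a subunit of the leading strand polymerase, fell. In LP-1-eGFP, POLE2 was at 10.59 and 10.60 untreated and 10.26 and 10.38 with bortezomib at 6 h, and at 10.63 and 10.88 against 9.23 and 9.38 at 24 h. In LP-1-cIAP2-eGFP, POLE2 was at 10.45 and 10.62 untreated and 10.21 and 10.17 with bortezomib at 6 h, and at 10.73 and 10.66 against 8.61 and 9.12 at 24 h. At 24 h POLE2 differed by -1.46 (SE 0.18, adjusted p = 0.000405) in LP-1-eGFP and by -1.83 (SE 0.18, adjusted p = 8.95e-05) in LP-1-cIAP2-eGFP, or -1.59 (adjusted p = 0.000151) without the dim array. The 4 treated arrays at 24 h were below all others, and on 1 of the 16 arrays the probe was not well above background. POLA1 is the catalytic subunit of the polymerase that starts each strand. In LP-1-eGFP, POLA1 was at 11.35 and 11.48 untreated and 11.58 and 11.57 with bortezomib at 6 h, and at 11.69 and 11.61 against 10.73 and 10.89 at 24 h. In LP-1-cIAP2-eGFP, POLA1 was at 11.87 and 11.93 untreated and 11.75 and 11.93 with bortezomib at 6 h, and at 11.84 and 11.93 against 11.20 and 11.18 at 24 h. At 24 h POLA1 differed by -0.84 (SE 0.13, adjusted p = 0.00142) in LP-1-eGFP and by -0.69 (SE 0.13, adjusted p = 0.00327) in LP-1-cIAP2-eGFP, or -0.70 (adjusted p = 0.00536) without the dim array. The treated arrays at 24 h were the lowest of each line. PRIM2, the large primase subunit, was called higher (0.70 and 0.51), but its other 2 probes gave 0.43 and 0.34 in LP-1-eGFP and 0.15 and 0.04 in LP-1-cIAP2-eGFP, not called. The call of the reported PRIM2 probe was lost in both lines in some fits with 1 array left out. PRIM1, the small subunit, is shown for its bright probe and was not called. In LP-1-eGFP, PRIM1 was at 13.10 and 13.14 untreated and 13.23 and 13.21 with bortezomib at 6 h, and at 13.61 and 13.43 against 13.36 and 13.30 at 24 h. In LP-1-cIAP2-eGFP, PRIM1 was at 13.60 and 13.52 untreated and 13.46 and 13.44 with bortezomib at 6 h, and at 13.83 and 13.65 against 13.39 and 13.51 at 24 h. At 24 h PRIM1 differed by -0.19 (SE 0.13, adjusted p = 0.387) in LP-1-eGFP and by -0.29 (SE 0.13, adjusted p = 0.122) in LP-1-cIAP2-eGFP, or -0.23 (adjusted p = 0.252) without the dim array. At 24 h its treated arrays were below the untreated ones in both lines, without a call. POLA2 (0.10 and -0.34), POLD1 (-0.13 and -0.42) and POLE (-0.61 and -0.56) were not called, nor was a second POLE probe (-0.18 and -1.17).

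Of the clamp and clamp loader genes, 2 of 5 were called lower in LP-1-eGFP against 4 of 5 in LP-1-cIAP2-eGFP, and none higher. PCNA is the ring that holds polymerases on DNA. In LP-1-eGFP, PCNA was at 15.14 and 15.30 untreated and 15.10 and 15.13 with bortezomib at 6 h, and at 15.50 and 15.29 against 14.85 and 14.68 at 24 h. In LP-1-cIAP2-eGFP, PCNA was at 15.60 and 15.52 untreated and 15.41 and 15.37 with bortezomib at 6 h, and at 15.79 and 15.56 against 14.66 and 15.02 at 24 h. At 24 h PCNA differed by -0.63 (SE 0.16, adjusted p = 0.0208) in LP-1-eGFP and by -0.83 (SE 0.16, adjusted p = 0.00414) in LP-1-cIAP2-eGFP, or -0.65 (adjusted p = 0.0144) without the dim array. Treated cells at 24 h gave the 4 lowest values. Its other 2 probes gave -0.73 and -0.82 in LP-1-eGFP and -0.80 and -1.01 in LP-1-cIAP2-eGFP, all called lower. On the reported probe the LP-1-eGFP call was lost without the first untreated or without either treated 24 h replicate (adjusted p = 0.0523 to 0.116). RFC2, a loader subunit, fell in both lines (-0.56 and -0.71), though its LP-1-eGFP call was lost in some fits with 1 array left out. RFC3, another, was called in LP-1-cIAP2-eGFP only. In LP-1-eGFP, RFC3 was at 10.36 and 10.23 untreated and 10.67 and 10.58 with bortezomib at 6 h, and at 10.31 and 10.31 against 9.90 and 9.65 at 24 h. In LP-1-cIAP2-eGFP, RFC3 was at 10.39 and 10.58 untreated and 10.53 and 10.54 with bortezomib at 6 h, and at 10.63 and 10.74 against 9.19 and 9.92 at 24 h. At 24 h RFC3 differed by -0.53 (SE 0.22, adjusted p = 0.123) in LP-1-eGFP and by -1.13 (SE 0.22, adjusted p = 0.00365) in LP-1-cIAP2-eGFP, or -0.77 (adjusted p = 0.00526) without the dim array. The 4 treated 24 h arrays were the lowest. Its second probe went the other way, at 0.41 and 0.10, not called, so the direction of RFC3 depends on the probe. RFC4 was at -0.31 and -0.49 and called in LP-1-cIAP2-eGFP, a call lost in some fits with 1 array left out. RFC5, at -0.29 and -0.03, was called in neither line.

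Single-strand binding and Okazaki fragment joining had 2 of 5 genes lower and 1 higher in each line. FEN1, the nuclease that trims Okazaki fragments, fell. In LP-1-eGFP, FEN1 was at 12.50 and 12.54 untreated and 12.31 and 12.44 with bortezomib at 6 h, and at 12.58 and 12.57 against 11.87 and 11.87 at 24 h. In LP-1-cIAP2-eGFP, FEN1 was at 12.59 and 12.51 untreated and 12.59 and 12.56 with bortezomib at 6 h, and at 12.58 and 12.37 against 11.44 and 11.61 at 24 h. At 24 h FEN1 differed by -0.70 (SE 0.13, adjusted p = 0.00376) in LP-1-eGFP and by -0.95 (SE 0.13, adjusted p = 0.000545) in LP-1-cIAP2-eGFP, or -0.87 (adjusted p = 0.00127) without the dim array. Again the treated 24 h arrays were the lowest. RPA1 is the large subunit of replication protein A, which coats single-stranded DNA. In LP-1-eGFP, RPA1 was at 14.16 and 14.23 untreated and 13.98 and 14.04 with bortezomib at 6 h, and at 14.26 and 14.26 against 13.57 and 13.59 at 24 h. In LP-1-cIAP2-eGFP, RPA1 was at 14.35 and 14.39 untreated and 14.23 and 14.32 with bortezomib at 6 h, and at 14.48 and 14.48 against 13.74 and 13.77 at 24 h. At 24 h RPA1 differed by -0.68 (SE 0.11, adjusted p = 0.00221) in LP-1-eGFP and by -0.72 (SE 0.11, adjusted p = 0.00122) in LP-1-cIAP2-eGFP, or -0.71 (adjusted p = 0.00164) without the dim array. The treated 24 h arrays were below all others of the 16. A second probe of RPA1 gave -0.23 in LP-1-eGFP, not called, and -1.56 in LP-1-cIAP2-eGFP. RPA2, the middle subunit, rose by 0.58 in LP-1-eGFP against 0.50 in LP-1-cIAP2-eGFP. In each line that call was lost in some of the fits with 1 array left out. The second RPA2 probe rose by 0.50 and 0.60. RPA3, the small subunit, was not called. In LP-1-eGFP, RPA3 was at 14.81 and 14.94 untreated and 14.68 and 14.72 with bortezomib at 6 h, and at 15.06 and 15.28 against 14.86 and 15.08 at 24 h. In LP-1-cIAP2-eGFP, RPA3 was at 14.9997 and 15.14 untreated and 14.90 and 15.07 with bortezomib at 6 h, and at 15.32 and 15.51 against 14.72 and 15.30 at 24 h. At 24 h RPA3 differed by -0.19 (SE 0.20, adjusted p = 0.602) in LP-1-eGFP and by -0.40 (SE 0.20, adjusted p = 0.157) in LP-1-cIAP2-eGFP, or -0.11 (adjusted p = 0.697) without the dim array. Its treated and untreated arrays overlapped at 24 h in LP-1-eGFP. LIG1, the ligase that joins the fragments, was at -0.02 and -0.16 and not called.

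The 4 genes of nucleotide supply moved in opposite directions. TYMS, thymidylate synthase, fell. In LP-1-eGFP, TYMS was at 16.22 and 16.38 untreated and 15.89 and 16.08 with bortezomib at 6 h, and at 16.52 and 16.50 against 14.96 and 15.18 at 24 h. In LP-1-cIAP2-eGFP, TYMS was at 16.56 and 16.72 untreated and 16.35 and 16.38 with bortezomib at 6 h, and at 16.83 and 16.77 against 14.96 and 15.40 at 24 h. At 24 h TYMS differed by -1.44 (SE 0.17, adjusted p = 0.00033) in LP-1-eGFP and by -1.62 (SE 0.17, adjusted p = 0.000128) in LP-1-cIAP2-eGFP, or -1.38 (adjusted p = 0.000289) without the dim array. All 4 arrays treated for 24 h lay below the other 12. TK1, thymidine kinase, fell less. In LP-1-eGFP, TK1 was at 16.77 and 16.86 untreated and 16.68 and 16.73 with bortezomib at 6 h, and at 17.06 and 17.09 against 16.25 and 16.30 at 24 h. In LP-1-cIAP2-eGFP, TK1 was at 16.83 and 16.85 untreated and 16.74 and 16.81 with bortezomib at 6 h, and at 17.10 and 17.14 against 16.23 and 16.36 at 24 h. At 24 h TK1 differed by -0.80 (SE 0.12, adjusted p = 0.00108) in LP-1-eGFP and by -0.82 (SE 0.12, adjusted p = 0.000721) in LP-1-cIAP2-eGFP, or -0.74 (adjusted p = 0.00137) without the dim array. Its untreated arrays were higher at 24 h than at 6 h, and the treated 24 h arrays were the lowest. RRM1, the large subunit of ribonucleotide reductase, rose by 0.85 (SE 0.13, adjusted p = 0.00134) in LP-1-eGFP and 0.58 (SE 0.13, adjusted p = 0.00882) in LP-1-cIAP2-eGFP. In the latter line normexp background correction turned it to -0.039, not called, and the call was lost in some fits with 1 array left out. RRM2, the small subunit of that enzyme, was the only member called in opposite directions in the lines, and it was looked at for that reason. In LP-1-eGFP, RRM2 was at 12.17 and 12.58 untreated and 12.90 and 13.20 with bortezomib at 6 h, and at 12.91 and 12.81 against 12.32 and 12.16 at 24 h. In LP-1-cIAP2-eGFP, RRM2 was at 12.27 and 12.23 untreated and 12.74 and 12.69 with bortezomib at 6 h, and at 12.53 and 12.50 against 13.17 and 13.37 at 24 h. At 24 h RRM2 differed by -0.62 (SE 0.17, adjusted p = 0.0284) in LP-1-eGFP and by 0.76 (SE 0.17, adjusted p = 0.009) in LP-1-cIAP2-eGFP, or 0.85 (adjusted p = 0.0111) without the dim array. In LP-1-eGFP the treated arrays were below and in LP-1-cIAP2-eGFP above the untreated ones at 24 h, with no overlap. The difference between the responses was 1.38 (95% interval 0.83 to 1.92, unadjusted p = 0.000238, adjusted p = 0.127), which did not pass the threshold. Without the dim array it was 1.48 (adjusted p = 0.0748). The call in LP-1-eGFP was lost without any 1 of its 4 arrays at 24 h (adjusted p = 0.0715 to 0.139) and that in LP-1-cIAP2-eGFP without the second untreated 24 h replicate (0.0520).

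Among the chromatin and histone supply genes, UHRF1 and SLBP were called. UHRF1 recruits the maintenance DNA methyltransferase to newly copied DNA. In LP-1-eGFP, UHRF1 was at 11.89 and 12.02 untreated and 11.61 and 11.75 with bortezomib at 6 h, and at 12.16 and 12.21 against 10.56 and 10.97 at 24 h. In LP-1-cIAP2-eGFP, UHRF1 was at 11.99 and 12.08 untreated and 11.67 and 11.86 with bortezomib at 6 h, and at 12.31 and 12.28 against 10.91 and 11.06 at 24 h. At 24 h UHRF1 differed by -1.42 (SE 0.16, adjusted p = 0.000254) in LP-1-eGFP and by -1.31 (SE 0.16, adjusted p = 0.000298) in LP-1-cIAP2-eGFP, or -1.24 (adjusted p = 0.00121) without the dim array. The 4 treated 24 h arrays were the lowest, and a second probe gave -1.67, not called, and -1.94. SLBP binds the stem loop of histone mRNAs and is needed for histone supply in S phase. In LP-1-eGFP, SLBP was at 14.82 and 14.82 untreated and 15.44 and 15.46 with bortezomib at 6 h, and at 14.85 and 14.90 against 14.62 and 14.52 at 24 h. In LP-1-cIAP2-eGFP, SLBP was at 15.02 and 15.12 untreated and 15.43 and 15.26 with bortezomib at 6 h, and at 15.18 and 14.98 against 14.43 and 14.63 at 24 h. At 24 h SLBP differed by -0.30 (SE 0.14, adjusted p = 0.159) in LP-1-eGFP and by -0.54 (SE 0.14, adjusted p = 0.0143) in LP-1-cIAP2-eGFP, or -0.45 (adjusted p = 0.0377) without the dim array. The treated arrays were above the untreated ones at 6 h and below them at 24 h, in both lines. The LP-1-cIAP2-eGFP call was lost without the first untreated 24 h replicate (adjusted p = 0.106). CHAF1A (0.00 and -0.05) and CHAF1B (0.18 and 0.08), which place histones on new DNA, were not called. A second CHAF1A probe gave -0.13 and -0.82 (adjusted p = 0.0852 in LP-1-cIAP2-eGFP). Of the fork checkpoint, repair and licensing control genes, UNG, which removes uracil from DNA, fell. In LP-1-eGFP, UNG was at 13.95 and 13.97 untreated and 13.47 and 13.55 with bortezomib at 6 h, and at 14.12 and 14.03 against 12.79 and 12.87 at 24 h. In LP-1-cIAP2-eGFP, UNG was at 14.17 and 14.29 untreated and 13.91 and 13.86 with bortezomib at 6 h, and at 14.28 and 14.16 against 13.60 and 13.51 at 24 h. At 24 h UNG differed by -1.24 (SE 0.12, adjusted p = 0.000123) in LP-1-eGFP and by -0.66 (SE 0.12, adjusted p = 0.00296) in LP-1-cIAP2-eGFP, or -0.71 (adjusted p = 0.00275) without the dim array. The treated arrays were below the untreated ones at both times. CLSPN, which passes the signal of a stalled fork to CHK1, was called higher in LP-1-cIAP2-eGFP. In LP-1-eGFP, CLSPN was at 8.27 and 8.02 untreated and 8.18 and 8.03 with bortezomib at 6 h, and at 7.9955 and 8.31 against 8.47 and 9.05 at 24 h. In LP-1-cIAP2-eGFP, CLSPN was at 8.01 and 7.96 untreated and 7.87 and 7.95 with bortezomib at 6 h, and at 8.29 and 8.14 against 9.30 and 9.20 at 24 h. At 24 h CLSPN differed by 0.61 (SE 0.20, adjusted p = 0.0608) in LP-1-eGFP and by 1.03 (SE 0.20, adjusted p = 0.00423) in LP-1-cIAP2-eGFP, or 0.99 (adjusted p = 0.0168) without the dim array. The 4 treated arrays at 24 h were the highest of the 16. DTL, which targets CDT1 for destruction, was called lower in LP-1-eGFP (-0.53) and was at -0.11 in LP-1-cIAP2-eGFP. Its call was lost under 2 of 9 alternatives and in 3 of 16 fits with 1 array left out (adjusted p up to 0.157). EXO1, an exonuclease, was called in neither line.

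The changes at 24 h were then set side by side for the lines, each measured against its own untreated arrays. The changes of the 53 genes had the same sign in both lines for 48 genes, and correlated with Pearson's r of 0.885 and Spearman's rho of 0.854 across genes, which are not independent replicates and share the arrays of each condition. In both lines 22 genes were called lower and 4 higher, and 15 were called in neither. Of the others, 5 were called lower in LP-1-eGFP alone, 4 lower in LP-1-cIAP2-eGFP alone, 1 higher in LP-1-eGFP alone and 3 higher in LP-1-cIAP2-eGFP alone, and RRM2 is counted both among the 5 and among the last 3. A call in one line and not in the other does not show a difference. In the test of the difference itself limma called 0 of the 53 genes, against 0.0712% of all probes, and 7 had an unadjusted p under 0.05. These were RRM2, UNG (0.58), CCNE2 (0.77), E2F1 (0.53) and GMNN (0.42), for which the log2 change was higher in LP-1-cIAP2-eGFP, and GINS1 (-0.89) and E2F2 (-0.74), for which it was lower. The share of all genes at this unadjusted level is not given here, so the 7 are listed without a reading as a group. The count of called differences was 9 without the second treated 24 h replicate of LP-1-cIAP2-eGFP, when only the dim array is left in that condition, and 0 without any 1 of the other 15 arrays. Over the comparisons at 24 h, 19 of the 32 LP-1-eGFP calls and 24 of the 33 LP-1-cIAP2-eGFP calls held with any 1 array left out.

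At 6 h few changes were called. In LP-1-eGFP 2 genes were called, both lower, CCNE1 (-1.02 (SE 0.15, adjusted p = 0.0106)) and CDC7 (-0.81 (SE 0.14, adjusted p = 0.0232)), against 0.691% of all probes called lower. In LP-1-cIAP2-eGFP 1 gene was called lower, CCNE1 (-0.77 (SE 0.15, adjusted p = 0.0499)), against 0.323% of all probes, and CDC7 was at -0.70 (SE 0.14, adjusted p = 0.0573). CCNE1, cyclin E1, was the only member called at 6 h in both lines. In LP-1-eGFP, CCNE1 was at 11.65 and 11.92 untreated and 10.70 and 10.83 with bortezomib at 6 h, and at 11.98 and 11.93 against 11.14 and 11.29 at 24 h. In LP-1-cIAP2-eGFP, CCNE1 was at 12.32 and 12.50 untreated and 11.54 and 11.75 with bortezomib at 6 h, and at 12.68 and 12.55 against 12.22 and 12.17 at 24 h. It was lower in treated cells at both times. The log2 difference between its 24 h and its 6 h effect was not called, at 0.31 (adjusted p = 0.218). In the mean of both lines 7 genes were called at 6 h, 4 lower and 3 higher, against 2.74% and 3.19% of all probes. CCNE1 (-0.90), E2F8 (-0.99), CDC7 (-0.76) and UNG (-0.40) were lower, and ORC1 (0.69), RRM2 (0.57) and SLBP (0.45) were higher. The median change of the members was -0.11 in LP-1-eGFP, with -0.10 in LP-1-cIAP2-eGFP, and -0.05 and -0.03 over all genes. The counts at 6 h rested on single arrays. The LP-1-eGFP count was 0 without any 1 of that line's 4 arrays at 6 h, 1 without either untreated 6 h array of LP-1-cIAP2-eGFP, and 7 without either LP-1-cIAP2-eGFP array treated for 24 h. The LP-1-cIAP2-eGFP count was 3 without either of the latter 2 arrays and 0 without any 1 of the other 14. In limma's test of the difference between the lines in their 6 h response, 0 of the 53 genes were called and 0 had an unadjusted p under 0.05, and 0.00297% of all probes were called.

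**Figure D3:**
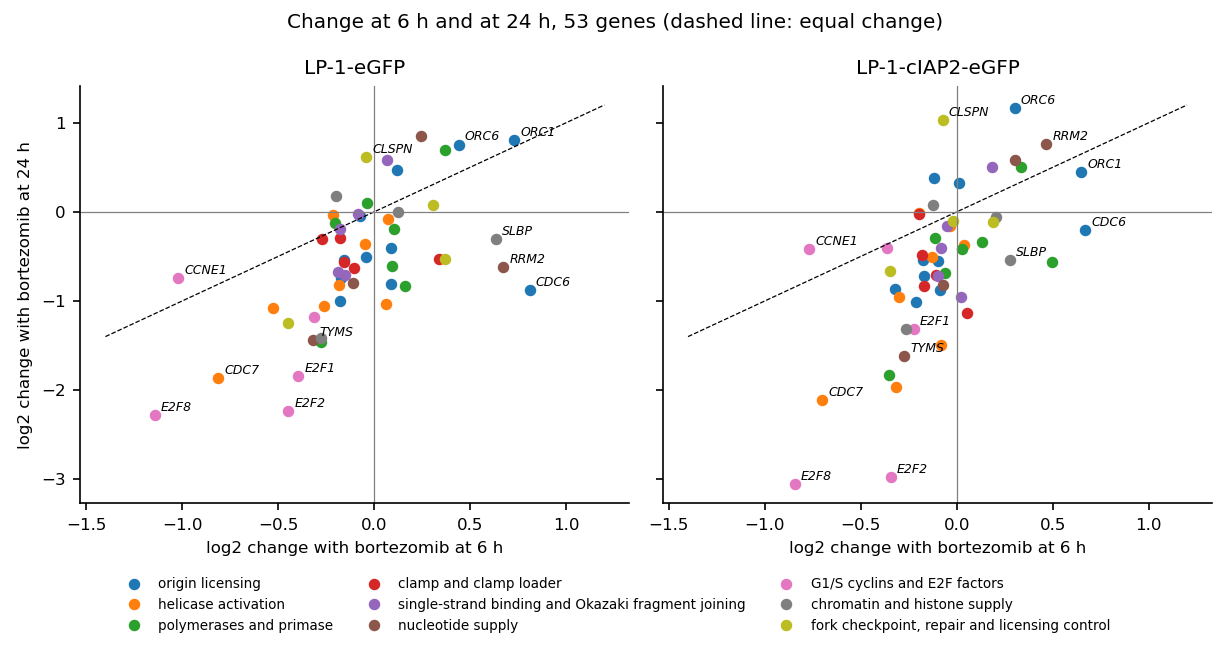
Log2 change with bortezomib at 6 h (x axis) and at 24 h (y axis) of the 53 genes in each line, coloured by role, with a dashed line of equal change. Most points lie near 0 on the x axis and below the dashed line, CCNE1 lies above it, and SLBP and CDC6 lie right of 0 at 6 h and below 0 at 24 h.

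The effect of bortezomib at 24 h was tested against its effect at 6 h in the mean of both lines. For 28 genes the effects differed, 26 lower and 2 higher at 24 h, against 8.78% and 6.16% of all probes and 15.5% and 13.2% of the bright genes, and the median difference of the members was -0.50. E2F2 (-2.21), E2F8 (-1.68), POLE2 (-1.33), CDC6 (-1.28), E2F1 (-1.27), MCM10 (-1.25), CDC7 (-1.23) and TYMS (-1.23) had the largest differences. SLBP (-0.88, adjusted p = 0.00252) turned from higher to lower. CLSPN (0.88, adjusted p = 0.0172) and RRM1 (0.44, adjusted p = 0.0491) had a higher change at 24 h than at 6 h, when neither was called. Both calls of a difference between times, and that of CDC6, were lost in some fits with 1 array left out. CDC6 was at 0.81 and 0.67 at 6 h in LP-1-eGFP and LP-1-cIAP2-eGFP, not called. Its missing spot was on an untreated 6 h array of LP-1-cIAP2-eGFP, so there the 6 h values rest on 1 untreated array. Its difference between times changed sign in the authors' own normalized values, where it was 0.18 and not called. Untreated cells did not give a called change with time. Between 6 h and 24 h 0 of the 53 genes were called, against 0.0089% of all probes, and 12 had an unadjusted p under 0.05 by limma. The share of all genes at this unadjusted level is not given here, so the 12 carry no reading as a group. The median change of the members was 0.14, higher at 24 h.

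The lines also differed in level for some of the genes. The study describes 1 transduced and sorted LP-1 line for each vector. An effect of cIAP2 on these levels cannot be told apart from one of transduction, sorting or culture of each line. Averaged over the 4 treatment and time conditions, 15 members were called, each by less than 2-fold, 12 higher and 3 lower in the arrays labelled LP-1-cIAP2-eGFP, against 6.26% and 9.84% of all probes, and the median difference was 0.13. With bortezomib at 24 h alone RRM2 was over 2-fold higher in LP-1-cIAP2-eGFP (1.03, adjusted p = 0.00909). Of the 9685 bright genes 12.9% were called higher and 13.3% lower. The largest differences were those of CCNE1 (0.78 (SE 0.08, adjusted p = 8.99e-05)), RFC5 (0.77 (SE 0.06, adjusted p = 3.63e-05)), CDC7 (0.65 (SE 0.07, adjusted p = 0.000222)) and E2F8 (0.63 (SE 0.14, adjusted p = 0.0112)). GINS3 (0.42), CCNE2 (0.40), UNG (0.38), LIG1 (0.36), POLA1 (0.34), MCM3 (0.30), PRIM1 (0.25) and RPA1 (0.21) were higher too. E2F1 (-0.47), EXO1 (-0.48) and MCM4 (-0.27) were lower. RFC5 is a clamp loader subunit, and its values ran from 12.47 over a median of 12.60 to 12.79 on the 8 LP-1-eGFP arrays and from 13.20 over 13.36 to 13.54 on the 8 LP-1-cIAP2-eGFP arrays, with no overlap. EXO1, an exonuclease, did not overlap either and went the other way, from 11.68 over a median of 11.97 to 12.14 on the LP-1-eGFP arrays and from 11.27 over 11.52 to 11.64 on those of LP-1-cIAP2-eGFP. The share of all genes without overlap between the lines is not given here. The lack of overlap therefore describes RFC5 and EXO1 alone. Second probes of CCNE2 (0.13) and RPA1 (-0.10) were not called, the latter in the other direction, and of PCNA, not called on its reported probe, another probe was higher (0.30, adjusted p = 0.00661). Of the 15 calls, 7 held under every alternative and with any array left out, those of CCNE1, CDC7, E2F1, EXO1, GINS3, RFC5 and UNG. The calls of PRIM1 and RPA1 were lost without any 1 of 11 and of 14 arrays. The count was 24 without the dim array, 21 without the other replicate of its condition, and 13 to 15 without any 1 of the other 14. Slide and line were not balanced, since slide 1 held 2 arrays of LP-1-eGFP against 6 of LP-1-cIAP2-eGFP. With slide as a block 11 members were called, and the part of the slide in these differences was not tested further. Between untreated arrays at 6 h, 1 a line on each slide, the median line difference of the members was 0.07 within slide 1 and 0.22 within slide 2. In untreated cells alone 8 members were called, 7 higher (CCNE1, RFC5, CDC7, E2F8, GINS3, MCM3 and POLA1) and 1 lower (E2F1), against 2.85% and 4.9% of all probes and 5.84% and 7.12% of the bright genes. That count was 15 without either LP-1-cIAP2-eGFP array treated for 24 h and 4 to 6 without any 1 of the other 14. The untreated calls of E2F8, GINS3, MCM3 and POLA1 were each lost in some fits with 1 array left out.

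**Figure D4:**
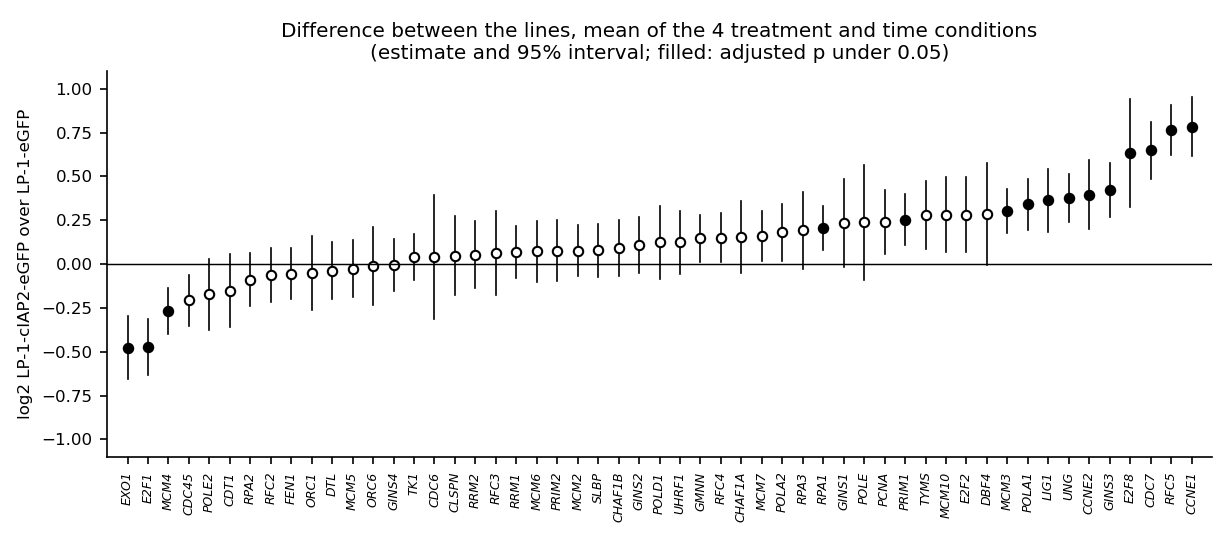
Log2 difference of LP-1-cIAP2-eGFP over LP-1-eGFP (y axis) for each of the 53 genes (x axis), averaged over the 4 treatment and time conditions, with 95% intervals and filled points for an adjusted p under 0.05. All estimates lie between -0.48 and 0.78, below 2-fold.

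Other genes of the cell cycle are given for comparison, by their log2 change at 24 h in LP-1-eGFP, then in LP-1-cIAP2-eGFP. In that order 11.2% and 17.5% of all probes were called lower, and 20.0% and 25.4% of the bright genes. Called higher were 9.81% and 11.1% of all probes, and 19.7% and 21.0% of the bright genes. Of 67 other replication genes 25 were called lower and 5 higher in LP-1-eGFP against 37 lower and 4 higher in LP-1-cIAP2-eGFP, with medians of -0.40 and -0.56. The lowest were CDCA7 (-3.12 and -3.29), a target of MYC, E2F5 (-2.84 and -2.78), a repressor E2F, and DCK (-1.84 and -3.51), deoxycytidine kinase, which was called in LP-1-cIAP2-eGFP alone. The highest were ORC3 (1.09 and 1.04), an origin recognition subunit, POLD4 (0.79 and 1.00), a subunit of polymerase delta, and E2F6 (0.70 and 0.48), a repressor of the family. The 38 genes of G2/M and mitosis fell in larger numbers, 31 lower and 1 higher in LP-1-eGFP against 35 lower and 1 higher in LP-1-cIAP2-eGFP, with medians of -0.93 and -1.52. PLK1 (-2.41 and -3.44), TOP2A (-1.94 and -3.19) and CENPA (-1.75 and -3.21) fell most, and KIF2C (0.61 and 0.53) was the only one called higher. The fall was larger in the mitosis genes than in the members by count and by median, a description with no test. Among the 7 CDK inhibitor genes 3 were called lower in each line and none higher, too few genes for a reading against the shares above. CDKN2A (-0.64 and -0.43) and CDKN2C (-0.64 and -0.73) were called in both, CDKN1B (-0.50 and -0.07) in LP-1-eGFP and CDKN2D (0.12 and -0.70) in LP-1-cIAP2-eGFP. CDKN1A, which encodes p21 and was well above background on 8 arrays, with a dropped spot on an LP-1-eGFP array treated for 24 h, was at 0.62 and 0.61 and not called, as were CDKN1C (-0.49 and -0.62) and CDKN2B (0.52 and 0.58). CDKN1C was higher in the arrays labelled LP-1-cIAP2-eGFP over all conditions (1.11, adjusted p = 0.00048). All 7 genes known to rise with proteasome inhibition, HSPA1A, HSPA1B, DNAJB1, HMOX1, DDIT3, PSMD4 and PSMD12, were called higher in both lines at 24 h, and 6 of the 7 in each line at 6 h, when 2 and 1 of the replication genes were called. Of the bright genes 2.93% and 1.69% were called higher at 6 h. HSPA1B, a heat shock protein gene, was at 5.61 and 4.87 at 24 h.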

How the data were processed

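RNA of 16 samples was measured on Agilent SurePrint G3 Human 8x60K arrays in a single colour. The deposited scanner files hold background-subtracted and detrended intensity values made by the authors with Feature Extraction (version 10.7.3.1, per the file headers), not normalized between arrays. A second deposited file holds the authors' log2 values, quantile normalized in GeneSpring and centred on each probe's median, and served only as an alternative.

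Groups were taken from the labels. Here, outlier spots were dropped, the log2 values of a probe's spots averaged, and all arrays quantile normalized in R 4.3.3 with limma 3.58.1. Of 50599 gene probes 33731 passed a filter (well above background on each array of 1 or more conditions) and were tested. Symbols were matched to 28174 probes through RefSeq accessions (GRCh38.p14). The model gave each condition a mean (lmFit, eBayes), and p-values were adjusted over all tested probes. With 2 replicates a condition, p-values measure the spread between those samples, and the number of arrays limits the precision.

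The members, the other gene lists and the tests were chosen with earlier results of these data known. Values in every sample are given for the member of each role with the highest mean signal and for up to 2 called members with the largest change at 24 h in the mean of the lines; RRM2 and CCNE1 were added after their values were seen. Of the other lists, the 3 largest called rises and falls and all CDK inhibitors are named. Promoter windows were read from RefSeq (GRCh38.p14). Alternatives were another scaling, background correction, the authors' values, 2 other filters, a replicate block, a slide block, array weights, averaged probes, and leaving out each array.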

Additional observations from a re-analysis of the deposited data

How the results depend on the processing

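The counts of called members at 24 h and of the 24 h against the 6 h effect stayed within 1.5 times under every alternative but array weights, which left 13 in LP-1-cIAP2-eGFP at 24 h. The replicate numbers were not taken to pair the samples, since the labels name nothing that a number shares and the replicate differences correlated between -0.11 and 0.24 over 28 pairs of conditions, with 7 over 0.1. The replicate block gave 33 calls for LP-1-eGFP at 24 h, 36 for LP-1-cIAP2-eGFP, 30 for the 24 h against the 6 h effect, 20 for the lines averaged, 13 for the untreated lines, and 4 and 2 at 6 h. At 6 h in LP-1-eGFP the count was 1 under 75th percentile scaling, no filter or a slide block, 7 with only probes above background on every array and 16 with array weights. At 6 h in LP-1-cIAP2-eGFP it was 0 under 75th percentile scaling, normexp, the authors' values, no filter, a slide block or averaged probes, 5 with only probes above background on every array and 3 with array weights. With only those probes, where fewer probes are tested, 1 member (against 0) differed in its 24 h response, 24 differed between the lines averaged and 16 between the untreated lines. The untreated lines gave 5 under 75th percentile scaling, normexp or a slide block, 4 with no filter and 15 with array weights.

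When 1 array at a time was left out, the counts ran at 24 h from 22 to 40 for LP-1-eGFP and from 26 to 38 for LP-1-cIAP2-eGFP, from 20 to 33 for the 24 h against the 6 h effect, from 0 to 7 and from 0 to 3 at 6 h, from 0 to 9 for the difference in 24 h response, from 13 to 24 for the lines averaged and from 4 to 15 for the untreated lines. Under every alternative and with any array left out, 15 calls of LP-1-eGFP at 24 h and 12 of LP-1-cIAP2-eGFP held, and 10 genes were in both sets (CDC7, E2F1, E2F2, E2F8, FEN1, MCM2, MCM10, POLE2, TYMS and UHRF1). POLE2 was not among the probes above background on every array, so that alternative was not run for it. The direction changed for the values of a pair of genes. The 24 h against 6 h difference of CDC6 was 0.18 in the authors' values (adjusted p = 0.956), and RRM1 in LP-1-cIAP2-eGFP at 24 h was -0.039 under normexp (adjusted p = 0.946). The cause of these shifts was not tested. With 2 arrays a condition, small changes could not be told from the spread between arrays.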

Other observations

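The 67 other replication genes are given by role at 24 h, with no test between roles; of all probes 11.2% were called lower in LP-1-eGFP and 17.5% in the other line. Of 12 initiation and fork proteins 3 were called lower in LP-1-eGFP against 10 in LP-1-cIAP2-eGFP, none higher, with medians of -0.42 and -0.73, a difference between counts that was not tested. Of 8 other genes of origin recognition and licensing 1 was called lower in each line, and 2 against 1 were called higher, with medians of 0.05 and 0.03. Of 16 other G1/S cyclins, kinases, RB and E2F genes 8 and 10 were called lower and 1 in each line higher, with medians of -0.62 and -0.91. Of 10 other polymerase and clamp loader subunits 5 were called lower and 2 higher in each line, with medians of -0.47 and -0.59. Of 5 other genes of nucleotide supply 2 and 3 were called lower, with medians of -1.54 and -1.71, and of 16 genes of chromatin and S phase repair 6 and 8, with medians of -0.36 and -0.29.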
